A study of Homo sapiens with 4 samples.

Results

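The nuclear-encoded subunits of the mitochondrial respiratory chain were described in AGS and HGC-27 cells with and without estradiol. Members were the protein-coding rows of the deposited gene table whose symbols follow the naming of complex I to V subunits (NDUF, SDH, UQCR and CYC1, COX4 to COX8, and ATP5), which gave 89 of 58336 genes. Complex I had 37 of them, complex II 4, complex III 10, complex IV 18 and complex V 20. NDUFA4 carries a complex I name but is a subunit of cytochrome c oxidase, and it was counted under complex IV.

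AGS and HGC-27 are established human gastric cancer cell lines, AGS from an adenocarcinoma of the stomach and HGC-27 from a lymph node metastasis of an undifferentiated carcinoma. Bulk RNA-seq was run on 4 libraries of total RNA: AGS with 10 nM estradiol for 1 day, AGS control, HGC-27 with the same dose and time, and HGC-27 control. Both lines are labelled wild type, and the labels give the controls as "nc" without naming a vehicle. Each line therefore had 1 estradiol and 1 control library, so estradiol was tested over the lines as 2 pairs, and AGS was set against HGC-27 with 2 libraries per line.

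The respiratory chain sits in the inner mitochondrial membrane. Complex I takes electrons from NADH and complex II from succinate, complex III passes them to cytochrome c, complex IV hands them to oxygen, and complex V uses the resulting proton gradient to make ATP. All of complex II is encoded in the nucleus, whereas the other complexes also hold subunits encoded by mitochondrial DNA. Nuclear respiratory factor 1 (NRF1), ETS-family factors such as GABP, and YY1 are known regulators of many of these genes.

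Promoter sequence was read from RefSeq (GRCh38.p14) for 71 of the 89 genes, as 300 bases that run from 250 bases before to 50 after the RefSeq start. The NRF1 letters (GCGCA, any base, then GCGC), the ETS letters CCGGAAG and the YY1 letters AAGATGGCG were searched on both strands, and 38 of the 71 promoters (53.5%) held at least 1 of them, against 16.04% of all 34943 promoters and 20.3% of the protein-coding ones. The NRF1 letters were in 17 promoters (23.9%, against 5.74% of all), the ETS letters in 20 (28.2%, against 10.2%) and the YY1 letters in 8 (11.3%, against 1.75%). The palindromic oestrogen response element (GGTCA, any 3 bases, then TGACC) was in 0 of the 71, against 0.0572% of all promoters, and the letters of the related ERR element, TCAAGGTCA, were in 1, SDHD, against 0.355% of all. The ERR letters contain the GGTCA of the oestrogen element, so those 2 searches overlap. Promoters with CCAAT made up 35.2% of the members' and 34.6% of all, and those with ACGTG, the core of the hypoxia response element, 23.9% and 21.4%. These are letter matches and were not tested as binding sites.

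The 100 bases just before the RefSeq start are shown for SDHA, the flavoprotein, and SDHB, the iron-sulfur protein, of complex II, both called higher in AGS. They are also shown for SDHD, an anchor gene of complex II that was not called. The other anchor gene, SDHC, was called higher in AGS but is not among the 71 genes with promoter sequence. The same stretch is shown for NDUFA3, the gene with the largest excess in AGS, and for ATP5MC1 and ATP5MC2. These last encode the same mature protein and differed in level between the lines. Capitals mark the NRF1 letters in SDHA and NDUFA3 and the ETS letters, read on the other strand, in SDHD. SDHA lies at chr5:218220-218319 (plus strand), SDHB at chr1:17054033-17054132 (minus), SDHD at chr11:112086773-112086872 (plus), NDUFA3 at chr19:54102755-54102854 (plus), ATP5MC1 at chr17:48892687-48892786 (plus) and ATP5MC2 at chr12:53676084-53676183 (minus). The RefSeq start can differ from that of the deposited gene, so a stretch can lie inside the deposited gene. Those of SDHB, SDHD, NDUFA3 and ATP5MC2 lie wholly inside it, and those of SDHA and ATP5MC1 partly. On the plus strand, the deposited genes start at 218241 (SDHA), 112086773 (SDHD), 54102728 (NDUFA3) and 48892765 (ATP5MC1). On the minus strand, SDHB runs from 17018722 to 17054170 and ATP5MC2 from 53632726 to 53677408.
SDHA: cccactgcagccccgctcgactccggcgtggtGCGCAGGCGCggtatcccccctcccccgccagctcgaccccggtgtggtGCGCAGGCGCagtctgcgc
SDHB: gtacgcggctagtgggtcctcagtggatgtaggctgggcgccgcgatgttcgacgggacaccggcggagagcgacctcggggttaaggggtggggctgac
SDHD: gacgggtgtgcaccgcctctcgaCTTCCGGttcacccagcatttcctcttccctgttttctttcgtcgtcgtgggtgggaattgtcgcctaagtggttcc
NDUFA3: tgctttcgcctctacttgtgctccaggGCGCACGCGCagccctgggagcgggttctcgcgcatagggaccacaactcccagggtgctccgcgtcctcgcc
ATP5MC1: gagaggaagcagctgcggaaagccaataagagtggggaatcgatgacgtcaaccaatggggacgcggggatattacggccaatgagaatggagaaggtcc
ATP5MC2: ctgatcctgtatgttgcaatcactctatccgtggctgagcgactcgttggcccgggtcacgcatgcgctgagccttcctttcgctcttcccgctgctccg
SDHA held the NRF1 letters at 2 places, 49 bases apart from start to start, within these 100 bases. SDHB, ATP5MC1 and ATP5MC2 had none of the NRF1, ETS or YY1 letters in the stretch shown. Over the full 300 bases searched, SDHB held the ETS and YY1 letters, and SDHD held the NRF1 letters as well. ATP5MC1 and ATP5MC2 held none of them there either.

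The libraries held 28062811 counts in AGS with estradiol, 26306803 in the AGS control, 24597379 in HGC-27 with estradiol and 28734374 in the HGC-27 control. The 89 genes took 0.612% and 0.629% of the counts in AGS (estradiol, control) and 0.870% and 0.885% in HGC-27 (estradiol, control). Of the 89, 84 passed the filter on low counts and were tested among 18278 genes, with all 37 of complex I, all 4 of complex II, all 10 of complex III, 14 of complex IV and 19 of complex V. Levels are given as CPM, which are counts scaled to the effective size of the library, or as RPKM, which also divide by gene length, where genes are compared with each other. Counting intervals below are 95% intervals that cover counting error only. They narrow as counts rise, so a gene of many counts passes 0 at a smaller ratio. The edgeR p-values use a spread between these 4 libraries that is mostly borrowed across genes (1 residual degree of freedom beside 396.9 prior ones). No label ties the libraries to separate cultures. In bulk RNA, fewer cells expressing a gene and less of its RNA per cell cannot be told apart. Epithelial markers summed to 6394 and 6055 CPM in AGS (estradiol, control) and to 74.9 and 70.6 CPM in HGC-27, where KRT19 had 2 and 1 counts and EPCAM 8 and 10. Mesenchymal markers summed to 5.57 and 5.04 CPM in AGS and 2142 and 2121 in HGC-27, and fibroblast markers to 10.6 and 12.7 CPM in AGS and 4369 and 4160 in HGC-27. All 8 epithelial markers were called higher in AGS, and all 7 tested mesenchymal and all 7 fibroblast markers lower. The part of these identity differences in the line differences below was not tested. Endothelial markers stayed under 1 CPM in sum in every library, at 0.362 and 0.231 in AGS and 0.440 and 0.657 in HGC-27.

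The first question was whether 1 day of estradiol changed respiratory chain RNA. No member was called for estradiol over both lines (0 of 84, edgeR quasi-likelihood test with Benjamini-Hochberg adjustment over all genes, adjusted p under 0.05), where 0.153% of all genes tested were called. At an unadjusted edgeR p under 0.05 there were 2 members, 2.38% against 3.24% of all genes, and DESeq2 and limma-voom called 0 members as well, though they called only 1 and 0 of the 18278 genes. The median change of the members was -0.03 (log2, estradiol over control) against -0.0007 over all genes. Fitted changes lay below 0 for 60 of the 84 members (71.4%), against 50.3% of all genes and 53.2% of the 11952 genes that averaged 100 counts or more per library. Among the 79 members that averaged 100 counts or more, fitted changes ran from -0.25 to 0.19, a span of at most 1.19-fold lower and 1.14-fold higher.

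NDUFB6, an accessory subunit of the membrane arm of complex I, had the lowest fitted change of the tested members. Its level was 18.7 CPM with estradiol and 24.5 CPM in the control in AGS, and 39.5 CPM with estradiol and 43.2 CPM in the control in HGC-27. It was lower with estradiol in both lines, and the 2 lines did not overlap. The fitted change was -0.25 ± 0.09 (log2, SE) with an unadjusted edgeR p of 0.00609 and an adjusted p of 0.857. NDUFA5, an accessory subunit of the matrix arm, had 63.6 CPM with estradiol and 69.7 in the control in AGS, and 74.9 with estradiol and 85.7 in the control in HGC-27. Its fitted change of -0.16 ± 0.06 had an unadjusted edgeR p of 0.0115 and did not pass adjustment. Among the members averaging at least 1 CPM, the other 4 of the 6 lowest changes were those of UQCR11 of complex III (-0.23 ± 0.14), ATP5PO, the OSCP subunit that joins the stalk of ATP synthase to its head (-0.20 ± 0.12), NDUFAB1, the mitochondrial acyl carrier protein (-0.13 ± 0.07), and COX6A1 (-0.13 ± 0.12), none of them called. The 6 highest at that level were those of UQCRHL (0.19 ± 0.19), NDUFB3 (0.09 ± 0.10), NDUFA3 (0.09 ± 0.10), ATP5ME (0.08 ± 0.22, with 61.6% of its exon bases overlapping MYL5), COX6C (0.07 ± 0.07) and NDUFA11 (0.06 ± 0.20), each within about 1 standard error of 0. Below 1 CPM on average, COX7A1 (0.68 ± 0.67) and COX6B2 (0.25 ± 0.66) had higher fitted changes and NDUFA7 one of -0.17 ± 0.61, with errors about as large or larger.

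By complex, the median fitted estradiol change was -0.03 in complex I (27 of 37 below 0), -0.03 in complex II (3 of 4), -0.04 in complex III (9 of 10), -0.04 in complex IV (9 of 14) and -0.03 in complex V (12 of 19). Summed over its genes, complex I stood at 1578 CPM with estradiol and 1615 in the control in AGS, and at 2609 with estradiol and 2699 in the control in HGC-27. The sum of every complex was lower with estradiol in both lines, with differences of -4.09% to -1.01% in AGS and -3.35% to -2.07% in HGC-27. These shifts were not tested, since each line had 1 library with and 1 without estradiol.

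Within a line, members averaging 100 counts or more in that line were described by the ratio of estradiol over control. In AGS, 79 members had a median log2 ratio of -0.03. The larger of the 2 levels exceeded the smaller by at least 15% in favour of estradiol for NDUFB3 and UQCRHL (2 of 79, where 6.18% of all genes were), and in favour of the control for ATP5PO, COX6A1 and NDUFB6 (3 of 79, where 7.95% of all genes were). The counting interval lay above 0 for 7 (14.2% of all genes) and below 0 for 18 (15.5% of all genes). In HGC-27, 80 members had a median of -0.05, with 0 past 15% in favour of estradiol (8.27% of all genes) and 2, NDUFB1 and UQCR11, in favour of the control (4.18% of all genes). The interval lay above 0 for 3 (10.8% of all genes) and below 0 for 21 (14.6% of all genes).

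The intervals of 6 of the 79 members counted in both lines lay below 0 in both, namely ATP5MC2, NDUFA5, NDUFAB1, NDUFB5, NDUFB6 and UQCRC2 (2.0% of all genes did so). No member had both intervals above 0 (1.17% of all genes did so), and 4 had intervals on opposite sides of 0 (4.86% of all genes did so). The shares of all genes by interval, here and within each line, were not matched to the members for depth. UQCRC2, a core protein of complex III, had 196 CPM with estradiol and 207 in the control in AGS, and 196 with estradiol and 203 in the control in HGC-27, which put its log2 ratios at -0.09 (-0.14 to -0.03) in AGS and -0.06 (-0.11 to -0.00) in HGC-27. NDUFB5, a membrane-arm subunit, had ratios of -0.11 (-0.20 to -0.02) in AGS and -0.12 (-0.21 to -0.02) in HGC-27. For NDUFAB1 they were -0.14 (-0.24 to -0.04) in AGS and -0.12 (-0.23 to -0.02) in HGC-27. The sign of the ratio was the same in both lines for 49 of 79 members (62.0%) and for 48.2% of the 9867 genes counted alike. Across the 79 genes, which share 2 libraries per line and are not replicates, the ratios in AGS and HGC-27 had Pearson's r of -0.04 and Spearman's rho of 0.03.

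**Figure D1:**
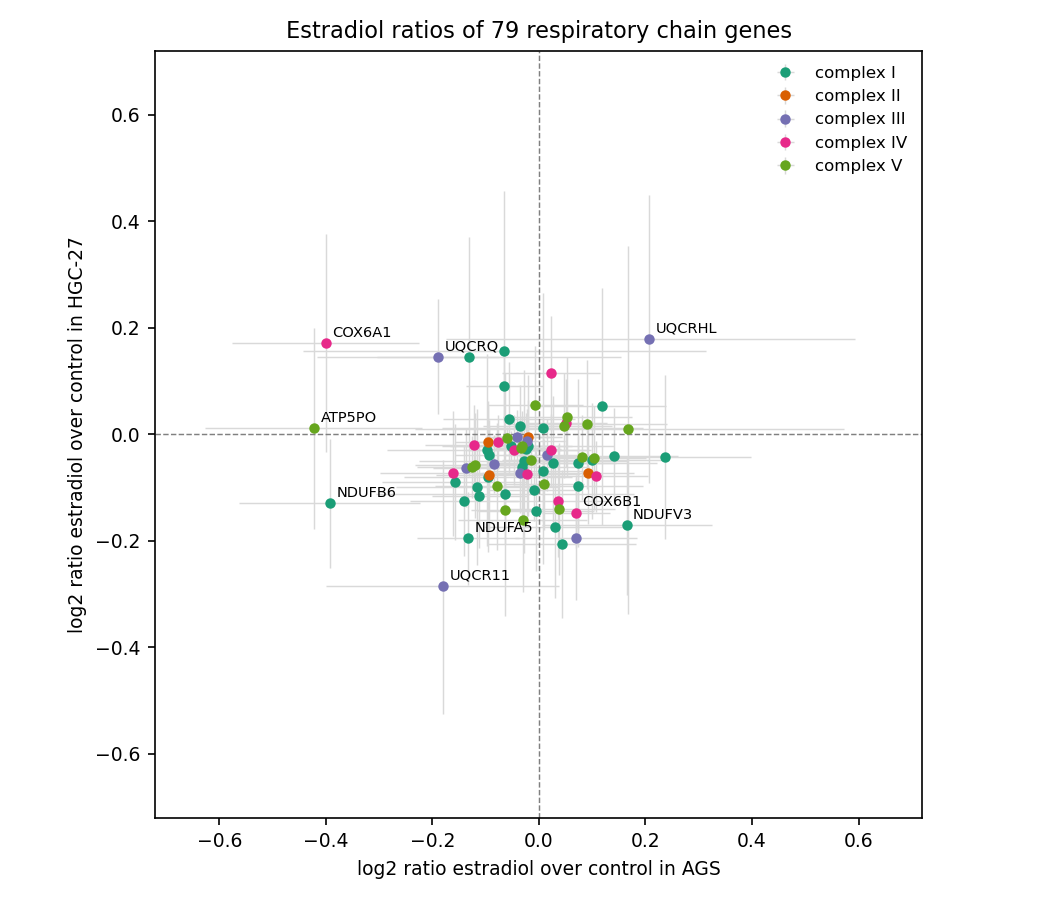
Log2 ratio of estradiol over control in AGS (horizontal axis) and in HGC-27 (vertical axis) for the 79 members averaging 100 counts or more in both lines, coloured by complex. Points are genes with 1 library per group and grey bars are 95% counting intervals. Most points lie within 0.2 of 0 on both axes, NDUFB6, ATP5PO and COX6A1 lie near -0.4 in AGS, and NDUFB6 alone of these 3 also has its HGC-27 interval below 0.

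The plot of estradiol ratios shows that the genes with the lowest ratios in AGS differed from those in HGC-27. COX6A1, the liver-type isoform of subunit 6A, had 17.4 CPM with estradiol and 23.0 in the control in AGS, and 15.7 with estradiol and 13.9 in the control in HGC-27. Its ratio in AGS was -0.40 (-0.58 to -0.22), and in HGC-27 0.17 (-0.03 to 0.38). ATP5PO had 13.0 CPM with estradiol and 17.4 in the control in AGS, and 17.2 with estradiol and 17.1 in the control in HGC-27. Its ratio of -0.42 (-0.63 to -0.22) in AGS stood beside 0.01 (-0.18 to 0.20) in HGC-27. Whether the ratios differ between the lines was not tested, as there is 1 pair per line.

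The second question was how the complexes differ between the lines. Of 84 members tested, 60 were called for AGS against HGC-27 (edgeR, adjusted p under 0.05), where 77.2% of all genes tested were called. There were 20 higher in AGS (35.7% of all genes were) and 40 lower in AGS (41.5% of all genes were), and 24 were not called. Differences of at least 2-fold among the called members numbered 8 (44.6% of all genes had one), with 1 higher in AGS (18.3% of all genes) and 7 lower (26.3% of all genes). Of the 60 called, 35 differed by less than 1.5-fold. The median difference was -0.17 (log2, AGS minus HGC-27) against -0.10 over all genes, -0.02 over protein-coding genes and 0.03 over genes that averaged 100 counts or more, and its median size without sign was 0.34 for the members against 0.89 for all genes and 0.68 for genes that averaged 100 counts or more. The sign of the difference was the same among the estradiol libraries as among the controls in 75 of the 84.

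**Figure D2:**
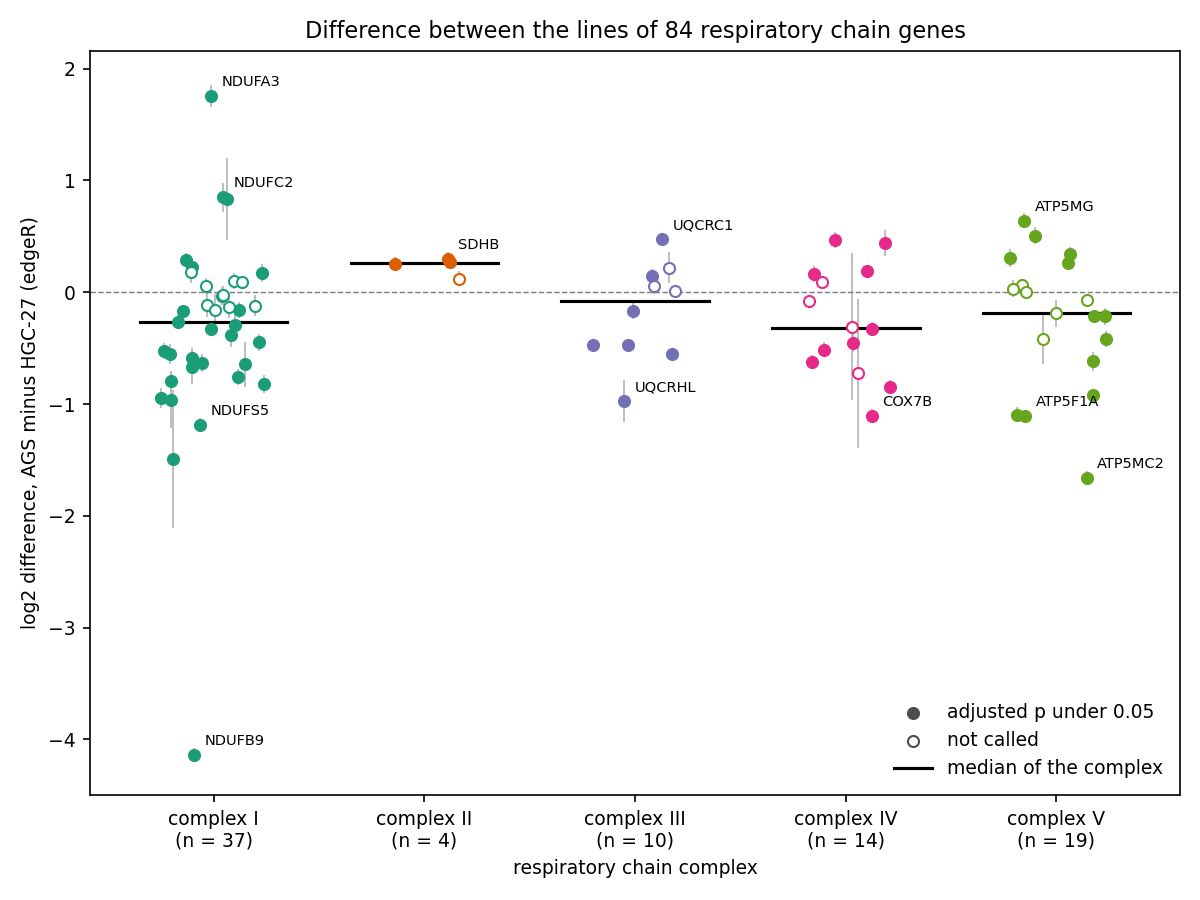
Fitted log2 difference AGS minus HGC-27 (vertical axis) of the 84 tested members, by complex (horizontal axis, with n genes). Filled points were called by edgeR, open points were not, vertical bars are standard errors from 2 libraries per line, and black lines are medians, which run from -0.32 in complex IV to 0.26 in complex II. NDUFB9 stands alone at -4.14 and NDUFA3 at 1.76.

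Complex II, with only 4 tested genes, had 3 called higher in AGS and none lower. Beside the counts of each complex, 35.7% of all genes tested were called higher in AGS and 41.5% lower. A count over 4 genes is too small to set the complex apart. Its differences, 0.12 to 0.30, were small beside the median size of 0.89 over all genes. SDHA, the flavoprotein that oxidizes succinate, had 143 CPM with estradiol and 145 in the control in AGS, and 119 and 119 in HGC-27. SDHB, its iron-sulfur partner, had 86.6 CPM with estradiol and 81.2 in the control in AGS, and 66.6 with estradiol and 70.0 in the control in HGC-27. Both AGS libraries were above both HGC-27 libraries for each gene. The fitted differences were 0.27 ± 0.06 for SDHA (edgeR adjusted p 4.04e-06), 0.30 ± 0.06 for SDHB (edgeR adjusted p 1.03e-05) and 0.26 ± 0.06 for SDHC, a membrane anchor (edgeR adjusted p 9.81e-06). The other anchor, SDHD, had 60.1 CPM with estradiol and 64.1 in the control in AGS, and 55.5 with estradiol and 58.6 in the control in HGC-27. Its difference of 0.12 ± 0.07 did not pass (edgeR adjusted p 0.0953). Summed, complex II stood at 119% of its HGC-27 level in AGS, complex III at 90.7%, complex IV at 84.2%, complex V at 66.9% and complex I at 60.2%. Such sums are weighted to the genes of most counts. In complex V, ATP5F1B alone had 715 and 745 CPM in AGS and 1372 and 1380 in HGC-27 (estradiol, control). The median difference of the 19 tested complex V genes was -0.19, with 5 called higher in AGS and 8 lower. Per kilobase of the deposited gene length, SDHB had the highest level of the 4 (30.9 RPKM on average) and SDHC the lowest (10.1 RPKM).

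In complex I, 6 of 37 genes were called higher in AGS and 21 lower, with a median of -0.27. Among the 7 core subunits, which carry the flavin and the iron-sulfur clusters or line the quinone site, 1 was called higher and 5 lower (median -0.33), and among the 30 accessory subunits 5 were called higher and 16 lower (median -0.21). NDUFV1, the flavin subunit that oxidizes NADH, had 112 CPM with estradiol and 117 in the control in AGS, and 132 with estradiol and 124 in the control in HGC-27. Its difference was small, -0.17 ± 0.06 (edgeR adjusted p 0.00524), and did not pass under DESeq2 (adjusted p 0.0741). NDUFS1, the largest iron-sulfur subunit, was lower in AGS by more than its error, at -0.33 ± 0.05 (edgeR adjusted p 1.02e-08).

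NDUFB9, a membrane-arm accessory subunit of the LYR-motif family, differed most of all members. Its level was 45.4 CPM with estradiol and 47.1 in the control in AGS, and 809 with estradiol and 821 in the control in HGC-27. The groups were far apart, with HGC-27 17.6-fold above AGS (-4.14 ± 0.06, edgeR adjusted p 1.87e-222), while estradiol left both lines within their counting intervals (-0.05, -0.17 to 0.06, in AGS and -0.02, -0.05 to 0.01, in HGC-27). This 1 gene carried much of the shortfall of complex I in AGS: without it the sum in AGS was 84.3% of that in HGC-27. The median of the complex moved only to -0.22. In HGC-27 it was the member with the second-highest CPM, after ATP5F1B.

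Among members averaging at least 1 CPM, the next lower in AGS in complex I were NDUFS5, with 83.1 CPM with estradiol and 83.7 in the control in AGS against 183 and 197 in HGC-27 (-1.18 ± 0.06, edgeR adjusted p 4.59e-64), NDUFA13, also known as GRIM-19 (-0.96 ± 0.26), and NDUFB6 (-0.94 ± 0.09). NDUFA13 had 65 and 69 counts in the AGS pair and 128 and 134 in the HGC-27 pair (estradiol, control). Of its exon bases 21.0% overlap other genes, and 33.4% of its 31-base stretches occur in another gene. NDUFS5 also had the highest level per length of the complex, 249.1 RPKM on average. NDUFA7 was the lowest, at 0.431 RPKM, with 9 and 8 counts in the AGS pair and 20 and 29 in the HGC-27 pair (estradiol, control). Its difference of -1.49 ± 0.62 is uncertain, because 81.8% of the 31-base stretches of its longest transcript also occur in another gene, and DESeq2 did not call it (adjusted p 0.0666).

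NDUFA3, a small membrane-arm subunit, was the 1 member at least 2-fold higher in AGS. Its level was 44.2 CPM with estradiol and 40.7 in the control in AGS, and 12.8 with estradiol and 12.3 in the control in HGC-27. AGS was 3.39-fold above HGC-27 with no overlap (1.76 ± 0.10, edgeR adjusted p 8.19e-52). NDUFC2 followed, with 17.4 CPM in both AGS libraries and 9.68 and 9.61 CPM in HGC-27 (0.85 ± 0.13, edgeR adjusted p 5.06e-10); 18.1% of its exon bases overlap other genes, a read-through transcript among them. NDUFV2, an iron-sulfur subunit, was at 0.84 ± 0.37 on 68 and 56 counts in the AGS pair and 29 and 41 in the HGC-27 pair, shares 74.6% of its 31-base stretches with other genes, and lost its call under DESeq2 (adjusted p 0.159).

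In complex III, 2 of 10 genes were called higher in AGS and 5 lower (median -0.08). UQCRC1, a core protein, had 152 CPM with estradiol and 167 in the control in AGS, and 112 and 117 in HGC-27, a difference of 0.47 ± 0.06 (edgeR adjusted p 2.28e-15). UQCRFS1, the Rieske iron-sulfur protein, went the other way, with 162 and 166 CPM in AGS and 227 and 228 in HGC-27 (-0.47 ± 0.05, edgeR adjusted p 1.24e-16). CYC1, cytochrome c1, was near equal at 0.15 ± 0.06 (edgeR adjusted p 0.0148; 0.0614 when scaled by total counts only). The electron-carrying proteins of the complex thus did not share a direction. UQCRH, the hinge protein and the member of highest level per length here (79.1 RPKM), was at -0.55 ± 0.06, and UQCRHL, a near copy of it that gave 2.96 RPKM, at -0.97 ± 0.19. Reads of UQCRH and UQCRHL may have been split between them.

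In complex IV, 4 of 14 tested genes were called higher in AGS and 6 lower (median -0.32). The isoforms of general tissues held nearly all of the counts. COX4I1, COX6A1, COX6B1, COX7A2 and COX8A had 17.4 to 217 CPM in AGS with estradiol, and COX6B1, which bridges the dimer, had the highest level per length (153 RPKM on average). The isoforms known from muscle, lung or testis were at or near 0. COX6A2, COX7B2 and COX8C had 0 counts in all 4 libraries, which allows up to 0.104 to 0.120 CPM per library, and COX4I2 had 1 count in all. The counts of COX6B2 (estradiol, control) were 9 and 14 in AGS, against 19 and 10 in HGC-27, and those of COX7A1 were 12 and 7 in AGS, against 18 and 13 in HGC-27. Markers of contractile muscle were low as well, with a sum of 3.51 and 4.66 CPM in AGS and 5.68 and 4.60 in HGC-27.

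COX7B, a small subunit of complex IV, was the member of that complex with the largest line difference. It had 65.3 CPM with estradiol and 60.6 in the control in AGS, and 132 with estradiol and 139 in the control in HGC-27 (-1.10 ± 0.06, edgeR adjusted p 1.12e-52). NDUFA4 had 75.5 and 78.0 CPM in AGS and 136 and 139 in HGC-27 (-0.84 ± 0.06, edgeR adjusted p 1.68e-36), and COX7A2L, a factor that joins complexes III and IV into supercomplexes, was at -0.62 ± 0.06. Its relative COX7A2 was at 0.16 ± 0.07, a call lost under DESeq2 (adjusted p 0.112). COX6C was higher in AGS at 0.47 ± 0.07 and COX6A1 at 0.44 ± 0.12, the call of COX6A1 being lost under DESeq2 (adjusted p 0.153). COX4I1 (-0.07 ± 0.05) and COX6B1 (0.09 ± 0.06) were not called, nor were COX6B2 and COX7A1, while COX8A was lower in AGS at -0.45 ± 0.08.

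**Figure D3:**
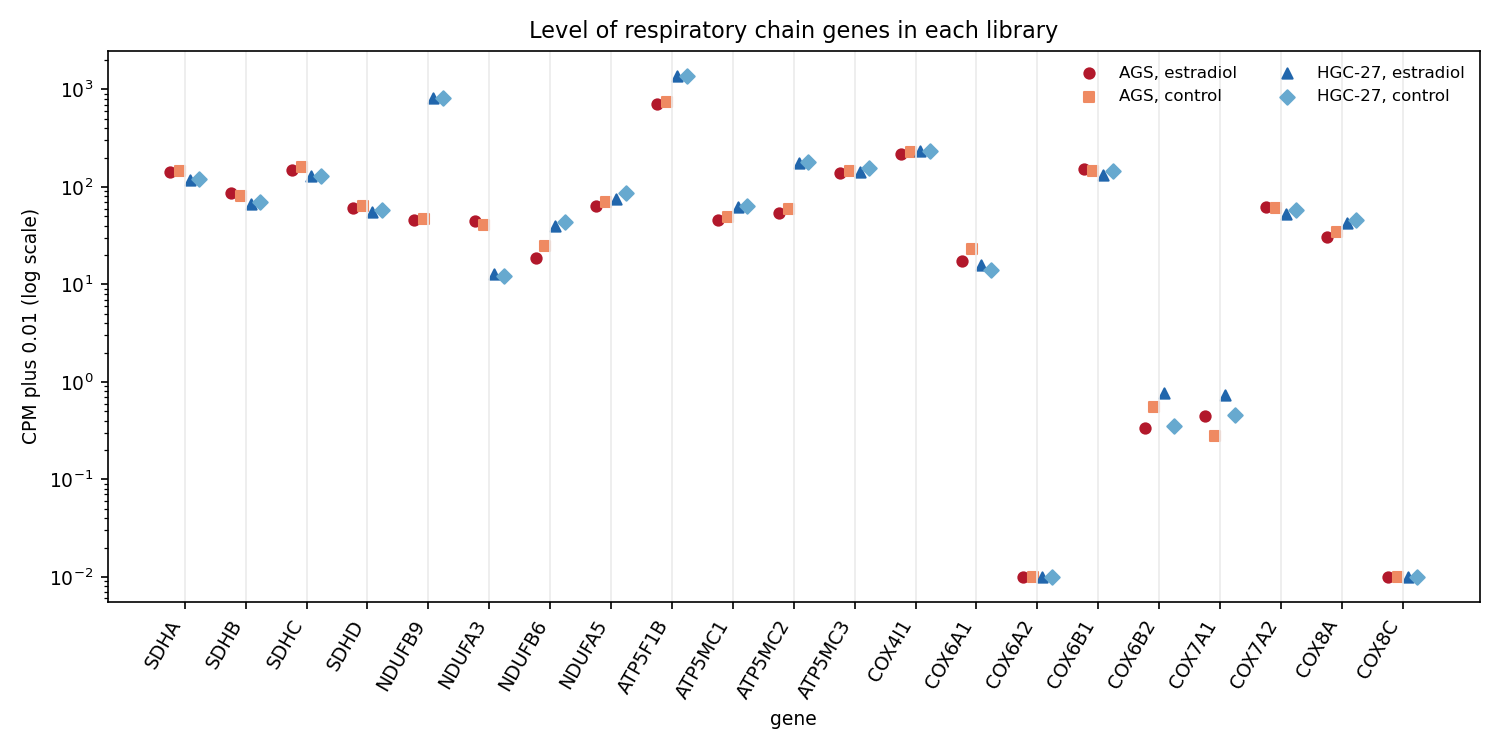
CPM plus 0.01 on a log scale (vertical axis) of 21 members (horizontal axis) in each of the 4 libraries, with AGS in red and orange and HGC-27 in blue. Each point is 1 library, and genes with 0 counts sit at 0.01. The estradiol and control libraries of a line nearly coincide for most genes, while NDUFB9, NDUFA3, ATP5F1B and ATP5MC2 separate the lines, and COX6A2 and COX8C sit at the floor beside COX6A1 and COX8A.

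In complex V, 5 of 19 tested genes were called higher in AGS and 8 lower (median -0.19). The F1 genes, ATP5F1A to ATP5F1E, which encode the catalytic head and the rotor subunits within it, accounted for most of the RNA. ATP5F1B, the beta subunit that makes ATP, had 715 CPM with estradiol and 745 in the control in AGS, and 1372 with estradiol and 1380 in the control in HGC-27, the highest level per length of all members (453 RPKM on average). ATP5F1A, the alpha subunit, had 264 and 270 CPM in AGS and 570 and 580 in HGC-27. Both were lower in AGS without overlap, at -0.91 ± 0.05 for ATP5F1B (edgeR adjusted p 1.62e-54) and -1.11 ± 0.05 for ATP5F1A (edgeR adjusted p 2.33e-68). ATP5F1C, the gamma subunit of the rotor, had 193 and 197 CPM in AGS and 185 and 188 in HGC-27 and was not called (0.06 ± 0.05), and ATP5F1E, the epsilon subunit, was higher in AGS at 0.35 ± 0.06. The F1 genes thus differed from each other in their line difference, though ATP5F1B and ATP5F1A were both lower in AGS.

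The c ring that turns in the membrane is built from 1 mature protein encoded by ATP5MC1, ATP5MC2 and ATP5MC3, which differ in their import peptides. ATP5MC2 had 54.1 CPM with estradiol and 58.9 in the control in AGS, and 175 with estradiol and 182 in the control in HGC-27, 3.16-fold more in HGC-27 (-1.66 ± 0.06, edgeR adjusted p 2.75e-93). ATP5MC3 had 140 and 146 CPM in AGS and 143 and 158 in HGC-27 and was not called (-0.07 ± 0.06). ATP5MC1 had 45.4 and 49.3 CPM in AGS and 61.9 and 64.4 in HGC-27 (-0.42 ± 0.07, edgeR adjusted p 2.01e-08). ATP5MC3 was thus the most abundant of the 3 in AGS by CPM, and ATP5MC2 in HGC-27.

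In the peripheral stalk, ATP5PD was lower in AGS (-1.10 ± 0.07) and ATP5PF higher (0.51 ± 0.07). Among the membrane subunits ATP5MG (0.64 ± 0.07) and ATP5MD (0.31 ± 0.08) were higher in AGS and the other 3 were not called. ATP5IF1, the inhibitor that stops ATP synthase from running backwards, had 75.9 and 73.5 CPM in AGS and 62.5 and 61.8 in HGC-27, a difference of 0.27 ± 0.07 (edgeR adjusted p 0.000124). ATP5S, known as factor B, had the lowest level per length of the tested genes here, 3.06 RPKM. ATP5MGL, a copy of ATP5MG, had 3 counts in all.

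NDUFB9 lies at chr8:124539103-124568510, with coordinates as in the deposited table (GRCh38). Within 1000 kb of its start, 13 of 14 other tested protein-coding genes were called at least 2-fold lower in AGS, the exception being FER1L6 (0.45, at 9 to 23 counts per library). The median of the 14 was -3.89, beside -4.14 for NDUFB9 itself, whereas 99 genes 5000 to 20000 kb away had a median of 0.62. That median hides a split by side, since the 20 upstream had a median of -2.00, with 11 called at least 2-fold lower in AGS and 2 higher, and the 79 downstream one of 0.90, with 8 lower and 31 higher. TATDN1, which starts 0.355 kb from NDUFB9, had 391 and 480 counts (estradiol, control) in the AGS pair and 7253 and 8776 in the HGC-27 pair. SQLE, which encodes squalene epoxidase of cholesterol synthesis, had 2624 and 2760 counts in the AGS pair and 30385 and 35431 in the HGC-27 pair, or -3.60. An unbroken run of 11 genes at least 2-fold lower in AGS went from TMEM65, 166 kb upstream, to TRIB1, 891 kb downstream. The next gene downstream, FAM84B, was higher in AGS at 4.29. Upstream the shortfall went on past FER1L6: 14 of 15 genes 1000 to 5000 kb upstream were called at least 2-fold lower in AGS (median -3.67), ATAD2 (-4.13) and ZHX1 (-4.24) among them, the exception being SNTB1 (-0.08). Of the NDUFB9 exon bases, 21.0% overlap other genes on the other strand, MTSS1 the most, and MTSS1 had 28 and 30 counts in the AGS pair and 1711 and 1899 in the HGC-27 pair. Without a known strand setting, reads of the overlapping bases cannot be told apart, and why the region differs was not tested. The other members on this chromosome, UQCRB (-0.47), COX6C (0.47) and CYC1 (0.15), did not have such differences.

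**Figure D4:**
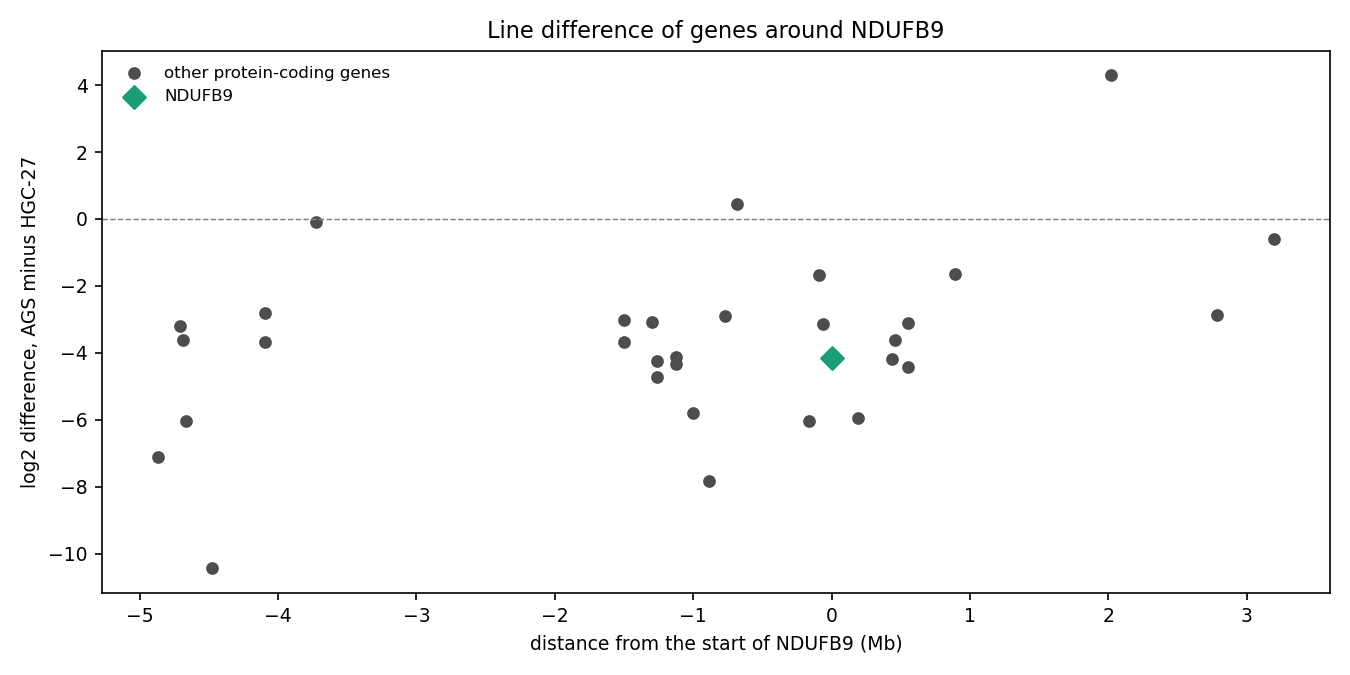
Log2 difference AGS minus HGC-27 (vertical axis) of tested protein-coding genes by the distance of their start from that of NDUFB9 in Mb (horizontal axis). Each point is 1 gene and the diamond is NDUFB9 at -4.14. Genes within 1 Mb lie between -7.83 and 0.45, and all but FER1L6 lie below -1, and most genes 1 to 5 Mb upstream lie there too.

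Other members also differed in the direction of their neighbours, and some did not. The median of the 30 coding neighbours of NDUFA3 was 1.53 and 21 of them were higher in AGS. Of the 41 neighbours of ATP5MC2, 36 were lower in AGS, with a median of -1.04, and COX7B (median -1.05 over 6 neighbours) and ATP5F1A (median -1.28 over 8) were alike. ATP5MC3, in contrast, was nearly equal between the lines beside 18 neighbours with a median of -7.25, and ATP5F1C was also near equal, beside 4 neighbours of which 2 were higher and 2 lower in AGS (-12.2 to 0.68), so that their median of -4.04 is a midpoint between unlike values. ATP5PD was lower in AGS while the median of its 46 neighbours was 0.28. Across the 81 members with at least 3 neighbours, the member's difference and its neighbours' median had Pearson's r of 0.40 (0.25 without NDUFB9) and Spearman's rho of 0.49, against 0.21 and 0.31 across 13341 protein-coding genes. These are descriptions across genes that share the same 4 libraries and, in places, the same neighbours.

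**Figure D5:**
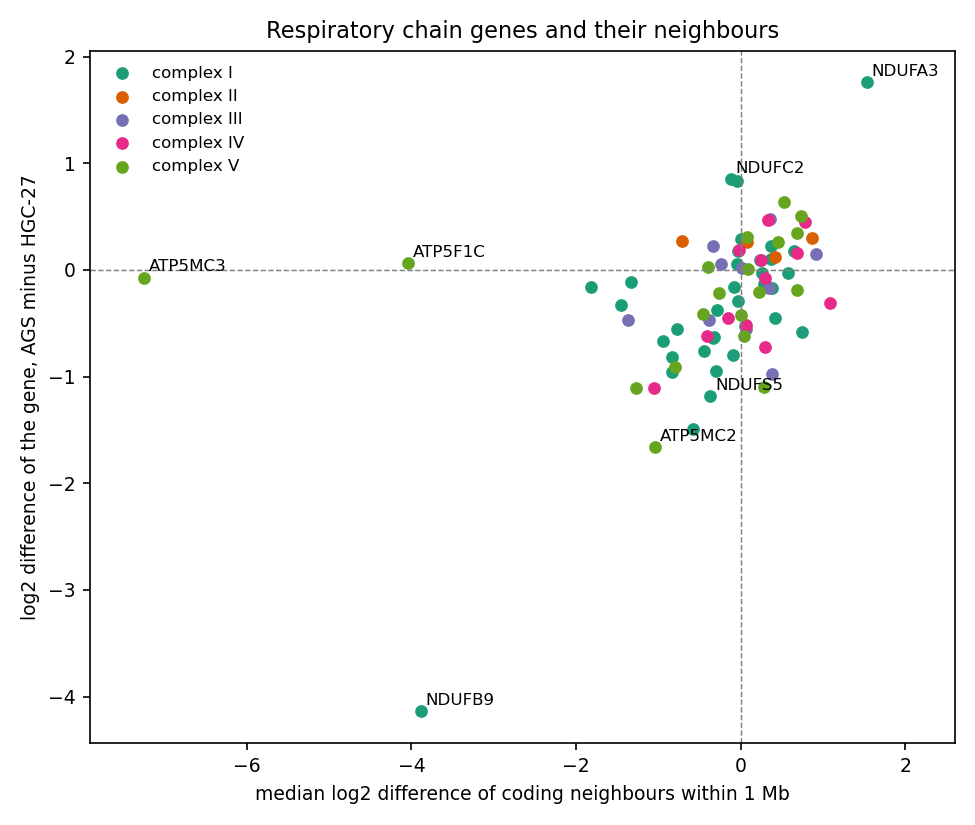
Log2 difference AGS minus HGC-27 of each of 81 members (vertical axis) against the median difference of the tested protein-coding genes that start within 1 Mb of it (horizontal axis), coloured by complex. Each point is 1 member from 2 libraries per line. NDUFB9 (bottom left) and NDUFA3 (top right) lie with their neighbours, while ATP5MC3 lies near 0 beside neighbours with a median of -7.25. ATP5F1C, at -4.04 on the horizontal axis, has 4 neighbours that split 2 and 2 in direction.

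The genes that work beside the nuclear subunits were read from the same fit. None of the 13 subunits encoded by mitochondrial DNA was called for estradiol, and between the lines 6 were called higher in AGS and 4 lower, with a median near 0 (0.004). MT-ND6 (0.59 ± 0.05) and MT-ND5 (0.48 ± 0.05) were higher in AGS and MT-ND1 (-0.39 ± 0.05) lower, all 3 being complex I subunits. Mitochondrial transcripts took 7.82% to 7.94% of the counts in every library, so the lines differed little there. Of the assembly factors, 6 were called higher and 9 lower of 19 for complex I, 3 and 6 of 10 for complexes II and III, 6 and 6 of 23 for complex IV, and 1 and 2 of 5 for complex V. Over all genes tested, 35.7% were called higher in AGS and 41.5% lower. None of these assembly factors was called for estradiol, where 0.153% of all genes were.

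Among 14 genes for electron carriers and coenzyme Q synthesis, 2 were called higher in AGS and 6 lower. CYCS, which encodes cytochrome c, had 222 CPM with estradiol and 225 in the control in AGS, and 481 with estradiol and 524 in the control in HGC-27 (-1.17 ± 0.05). Of 16 tested transcriptional regulators of mitochondria, 7 were called higher and 6 lower, with PPARGC1A, a coactivator of mitochondrial biogenesis, at 96 and 121 counts in the AGS pair and 4 and 5 in the HGC-27 pair (4.58 ± 0.47). Of 18 tricarboxylic acid cycle genes, 10 were called higher and 7 lower. Beside the counts of these 3 groups, 35.7% of all genes tested were called higher in AGS and 41.5% lower. None of the genes in these 3 groups was called for estradiol, where 0.153% of all genes were.

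Of 13 genes of the low-oxygen switch of respiration, 1 was called for estradiol, where 0.153% of all genes were. NDUFA4L2, a relative of NDUFA4 known to be induced by low oxygen, had 4 counts with estradiol and 1 in the control in AGS, and 813 with estradiol and 410 in the control in HGC-27. The fitted change was 1.21 ± 0.18 (edgeR adjusted p 1.92e-07), and the HGC-27 pair carried it, since the AGS counts were 4 and 1. The call was lost under DESeq2 and limma-voom (adjusted p 1.0 and 0.99) and with no replicate block (edgeR adjusted p 1.0), and held in the other 5 alternatives. NDUFA4 itself had a fitted change of -0.04 ± 0.06. The median log2 ratio of the 13 genes was 0.16 in HGC-27 and 0.01 in AGS. In HGC-27, the counting intervals of PDK3 (0.68), PDK1 (0.49), BNIP3L (0.49), EGLN1 (0.32), MXI1 (0.31), EGLN3 (0.16) and LONP1 (0.12) also lay above 0. That of BNIP3 (-0.67) lay below 0 there. In AGS, the interval of EPAS1 (0.11) lay above 0 and those of PDK3 (-0.24) and BNIP3L (-0.40) below. These ratios within a line were not tested. Between the lines, 7 genes of this group were called higher in AGS (35.7% of all genes were) and 5 lower (41.5% of all genes were). NDUFA4L2 was among those lower. Of the other marker lists, only the leukocyte list had a member called for estradiol, LYZ, the lysozyme gene that gastric epithelium also expresses, at 181 CPM with estradiol and 244 in the control in AGS, and 0 and 2 counts in HGC-27 (-0.43 ± 0.08, edgeR adjusted p 0.000208). That call was lost in those 3 alternatives as well, and when genes of shared sequence were left out (edgeR adjusted p 0.0899). PTPRC, which defines leukocytes, had 0 to 22 counts per library and CD3E had 0.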

How the data were processed

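The authors deposited 1 table of raw counts per gene for 4 libraries. Per the submitters' processing notes, HISAT2 and featureCounts were used; versions, strand setting and the treatment of reads with several matches are not given in the sources used here. Those notes name hg18, but 57475 of 58336 table genes have the start and end of GENCODE 29 (GRCh38), and 86 of the 89 members do. Counts were analysed with edgeR 4.0.16 in R 4.3.3 (TMM scaling, filterByExpr, quasi-likelihood F-test, cell line and treatment in the model, Benjamini-Hochberg over 18278 genes, threshold 0.05). With 1 residual degree of freedom the spread is borrowed across genes. Library numbers in the labels mark the cell line: r was 0.997 within each pair and 0.777 to 0.781 between lines, so the line is the block. Within a line, log2 ratios of TMM-scaled CPM used a prior of 0.5 counts and an exact conditional binomial 95% interval, for genes averaging 100 counts or more. RPKM used the deposited gene length. Alternatives were DESeq2 1.42.0, limma-voom 3.58.1, other scalings and filters. The tests were checked on simulated data, in which every gene had the common spread of these libraries. For estradiol, edgeR recovered 26 of 50 genes changed 1.25-fold and 46 of 50 changed 1.5-fold, with 8 false calls among 18255 genes. Between the lines it recovered 24 of 50 and 50 of 50, with 3 false calls among 17615. Changes under 1.25-fold were not simulated, and spread between cultures could not be checked in this way.

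The members and gene lists were chosen with earlier results of these data known. Named members are the 6 highest and 6 lowest changes with estradiol, the 10 largest called line differences in each direction, the highest and lowest level per length in each complex, paralogs, and catalytic or redox subunits. Neighbouring genes and promoter letters were looked at after the values were seen.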

Additional observations from a re-analysis of the deposited data

Results flagged for a closer look

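For 4 members, the estradiol and control libraries moved in opposite directions in the 2 lines, with both counting intervals on their side of 0. The difference between the lines was not tested, since each line has 1 pair. UQCRQ of complex III had 43.1 CPM with estradiol and 49.2 in the control in AGS, and 54.4 with estradiol and 49.2 in the control in HGC-27, so its log2 ratio in AGS minus that in HGC-27 was -0.33. NDUFV3 of complex I had 25.8 and 23.0 CPM in AGS and 34.4 and 38.8 in HGC-27 (estradiol, control), a difference of ratios of 0.34. COX6B1 had 152 and 145 CPM in AGS and 132 and 146 in HGC-27, a difference of 0.22, and COX7B had 65.3 and 60.6 CPM in AGS and 132 and 139 in HGC-27, a difference of 0.19. Among all genes counted alike, 4.86% had intervals on opposite sides, and 4 of 79 members did.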

How the results depend on the processing

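The count of members called for estradiol was 0 under each of the 8 alternative settings, the fit with no replicate block among them (0 genes of all 18278 called there). Members called between the lines numbered 60, and 51 to 60 under the other scalings, filters and tools (51 with DESeq2, 59 with no replicate block), or 8 when at least 2-fold. No member's difference reversed. Over all genes, 28 were called for estradiol with the replicate block and 0 without it, no member in either, and UQCRQ alone lost its line call without the block. In all, 10 members lost their call in at least 1 setting, 9 of them under DESeq2: COX6A1, COX7A2, NDUFA11, NDUFA7, NDUFB10, NDUFB11, NDUFV1, NDUFV2 and UQCRQ, with CYC1 under total counts. The median line difference was -0.20 with total counts only, and -0.20 to -0.17 with 1 library left out. The median estradiol change was -0.05 to -0.03 with 1 library left out. Members past 15% with estradiol in AGS were 5, or 3 past 25% and 25 by interval; in HGC-27 they were 2, or 1 with total counts, 1 with DESeq2 size factors, 6 at a lower limit of 10 counts on average, 0 past 25% and 24 by interval. The cause was not tested.

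With 3 libraries, line and treatment leave no residual degree of freedom, so calls without 1 library could not be made. At 1 library per line and treatment, small changes such as those of the members (median standard error 0.07 for those averaging 100 counts or more) are at the limit of what these libraries resolve, and the largest count of COX7A1 and COX6B2 was under 20 per library.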
